A study of Astyanax mexicanus with 6 samples.

Results

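The secreted signals of the Wnt, fibroblast growth factor (FGF), bone morphogenetic protein (BMP) and hedgehog pathways, with their receptors and the Gli factors, were examined in embryonic eyes of cave and surface forms of the Mexican tetra, Astyanax mexicanus. Members were taken by gene name from the count table: names beginning with wnt and a digit, fzd, fgf and a digit, fgfr, bmp and a digit, bmpr, gdf, shh, ihh, ptch, or gli with 1, 2 or 3. The rule found 110 genes of the 25271 in the table, of which 35 were Wnt, 33 FGF, 30 BMP and 12 hedgehog members. It used names and no measured value. Some names do not mark a pathway signal: fgfr1op and fgfr1op2 are named for a fusion with an FGF receptor gene, BMP2K encodes a kinase, the bmp1 genes encode proteases, and ptchd1 and ptchd4 encode patched-domain proteins.

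Wnt ligands bind Frizzled receptors and can stabilise beta-catenin. FGF ligands act through receptor tyrosine kinases. BMP and growth differentiation factor (GDF) ligands signal through paired serine kinase receptors to Smad proteins. Hedgehog ligands bind Patched, which releases Smoothened and turns on Gli transcription factors, and patched and gli1 genes are themselves standard targets of the pathway. In the vertebrate eye these signals pattern the optic cup, stalk and ciliary margin, and midline hedgehog signalling is known to be expanded in cave embryos and to limit their eyes.

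All samples were wild type eyes dissected at about 54 hours post-fertilization, with 2 poly(A) RNA libraries and 1 whole-genome bisulfite (WGBS) library per morph. Cave morph eyes form in the embryo and later degenerate, and the series title asks for an epigenetic mechanism of that loss. Whether the paired libraries of a morph hold different embryos is not in the labels, so the tests cover the variation seen between libraries, part of which could be technical. Deposited raw counts summed to between 117742250 and 154476181 per RNA library, and levels are given as CPM (counts per 1000000 of the library total). Transcript lengths were not used, so levels are compared between libraries and not between genes.

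The direction of every RNA difference below follows the column names, as labelled cave minus labelled surface. Photoreceptor markers were far higher in the libraries labelled cave, where the 28 listed genes found summed to 7303 and 8425 CPM against 604 and 605 CPM. Of these, 24 passed edgeR's test as higher and 0 as lower, beside 2.77% and 0.407% of all genes. Without either surface library edgeR called 0 of all genes in each direction, these included. All 2320 genes called in the authors' deposited comparison carry the opposite sign to the difference computed here, and its headers name no direction. Pigment cell markers, 13 genes, summed to 4050 and 5680 CPM against 1824 and 1332 CPM, with 7 called higher. Lens markers, 12 of them tested, summed to 557 and 643 CPM against 104 and 74.4 CPM, with 6 called higher. The part of these eye markers in the members' values was not tested, nor was whether the names of the count columns were exchanged. In dissected tissue, fewer cells of a type and less RNA per cell cannot be told apart. Markers of tissue around the eye were abundant: 13 epidermis and cornea genes summed to 16214 and 1679 CPM in labelled cave replicates 1 and 2 and to 12557 and 14382 CPM in the surface pair. Cave replicate 2 thus stood apart in skin markers, and in 15 mesenchyme, cartilage and neural crest genes it summed to 445 CPM against 3884 to 4050 CPM in the other libraries. Muscle markers summed to 793 and 90.5 CPM against 180 and 226 CPM. Ganglion and amacrine cell markers of the inner retina summed to 1010 and 1234 against 878 and 1285 CPM, retinal progenitor markers to 958 and 1403 against 1195 and 1029 CPM, and blood, vessel and macrophage markers to 153 and 119 against 168 and 165 CPM. Of these 4 lists 11, 15, 10 and 15 genes were tested, in that order, and edgeR called 0. At an unadjusted p under 0.05 there were 3, 10, 2 and 1, beside 18.3% of all genes. DESeq2 called 3, 4, 1 and 0 higher and 1 blood list gene lower, beside 6.61% and 3.14% of all genes. The ganglion and amacrine list had a median log2 fold change of 0.73, with 11 genes positive and 4 negative.

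The first comparison asks which of these signalling genes differ in expression between the libraries labelled cave and surface. Of 103 members that passed the filter on low counts, edgeR's quasi-likelihood test called 0 higher and 0 lower at an adjusted p under 0.05, where 2.77% and 0.407% of all 22850 genes tested were called. At an unadjusted p under 0.05 there were 20 members (19.4%) beside 18.3% of all genes. DESeq2 called 1 higher (0.926% of 108 members with an adjusted p) and 9 lower (8.33%), against 6.61% and 3.14% of all genes. Both labelled cave libraries lay below both labelled surface libraries in 45 members (43.7%) and above them in 12 (11.7%), against 27.7% and 25.4% of genes tested. The median log2 fold change was -0.58 over Wnt, -0.59 over FGF, -0.22 over BMP and -1.09 over hedgehog members, and 0.02 over all genes. The remaining 7 members were too low for the test: fgf9 had 0 counts in each library, and ihha, gdf2, gdf7, BMP1, bmp1 and 1 wnt8a copy had at most 32 counts in any.

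**Figure D1:**
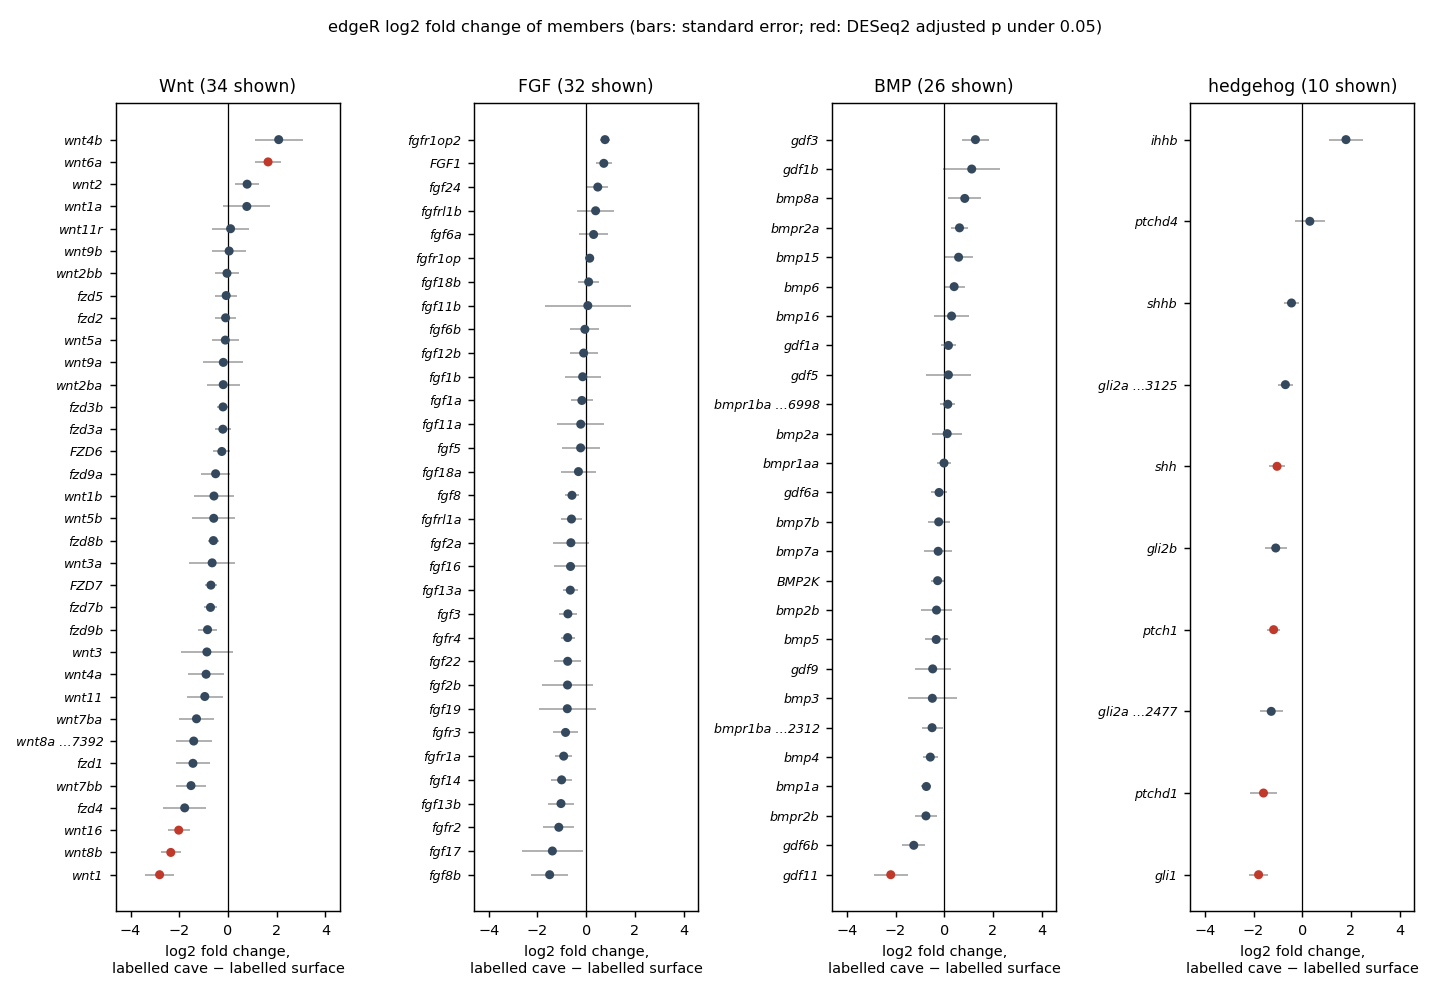
Log2 fold change of tested members by edgeR (points; labelled cave minus labelled surface) with its standard error (bars), in 1 panel per pathway, with genes in the order of their fold change. Red points mark members called by DESeq2 at an adjusted p under 0.05; among hedgehog members all but ihhb and ptchd4 lie left of 0.

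Of the 11 hedgehog members tested, 9 were lower in both labelled cave libraries than in both surface libraries, 1 was higher and 1 overlapped. These were 81.8% lower and 9.09% higher, beside 27.7% and 25.4% of all genes tested. EdgeR called 0 of 11, with 7 (63.6%) at an unadjusted p under 0.05 beside 18.3% of all genes. DESeq2 called 5 lower, where 3.14% of all genes were called lower.

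Among ligands, shh (ENSAMXG00000002089, scaffold KB871602.1, 669493 to 677705) encodes Sonic hedgehog, made by the ventral midline and by retinal neurons. It stood at 11.5 and 7.81 CPM in the libraries labelled cave and at 17.5 and 24.8 CPM in those labelled surface. Both cave values were under both surface values, with means of 9.68 ± 2.64 and 21.1 ± 5.18 CPM (SD, n = 2). The log2 fold change was -1.04 (SE 0.31), which did not pass the threshold (adjusted p = 0.170 in edgeR and 0.0385 in DESeq2, both after Benjamini-Hochberg correction). Its paralog shhb (ENSAMXG00000008367) had 8.23 and 9.31 CPM against 10.7 and 14.7 CPM, a smaller gap at log2 -0.45 (SE 0.30; edgeR, adjusted p = 0.506). The Indian hedgehog gene ihhb (ENSAMXG00000013154) went the other way, with 1.53 and 0.815 CPM against 0.231 and 0.492 CPM (log2 1.79, SE 0.70; edgeR, adjusted p = 0.262; DESeq2, adjusted p = 0.157). These ihhb levels rest on 34 to 203 counts per library. Its copy ihha had 6 and 0 counts against 2 and 10.

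The receptor gene ptch1 (ENSAMXG00000014560, scaffold KB871682.1, 82547 to 168720) had 26.4 and 17.6 CPM in the cave-labelled pair and 42.9 and 62.9 CPM in the surface-labelled pair. Its groups did not overlap, at log2 -1.18 (SE 0.28; edgeR, adjusted p = 0.107; DESeq2, adjusted p = 0.0121).

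The transcription factor gene gli1 (ENSAMXG00000017236, scaffold KB882171.1, 6312614 to 6379152) encodes an activator of hedgehog targets. It had 830 and 428 counts in the cave-labelled pair and 2205 and 3314 in the surface-labelled pair. Group means were 4.94 ± 1.85 and 18.2 ± 4.56 CPM (SD, n = 2). The difference was -1.80 on the log2 scale (SE 0.38), the lowest value among hedgehog members (edgeR, adjusted p = 0.0791; DESeq2, adjusted p = 0.000247). The gli2 genes, which encode factors that can activate or repress targets, lay in the same direction without passing either test. One gli2a copy (ENSAMXG00000002477) had 14.3 and 5.39 CPM against 21.7 and 28.7 CPM (log2 -1.28), and the other (ENSAMXG00000003125) had 11.8 and 7.75 CPM against 15.5 and 18 CPM (log2 -0.70). For gli2b the levels were 8.59 and 4.0 CPM against 11.2 and 17.3 CPM (log2 -1.09). In each of the 4 Gli genes cave replicate 2 was the lowest library. Reads may be split between copies that share a symbol.

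Of the patched-domain genes, ptchd1 had 1.03 and 1.32 CPM against 2.43 and 5.26 CPM (log2 -1.60; edgeR, adjusted p = 0.209; DESeq2, adjusted p = 0.0486), while ptchd4 overlapped between groups (log2 0.31). Fits on 3 libraries leave a lone library in 1 group, which is assumed to vary as the remaining pair does. With a cave library left out, far more of all tested genes pass edgeR: 12.9% as higher and 18.1% as lower where cave replicate 1 is the one missing, and 11.2% and 8.37% where it is cave replicate 2. Of the 11 hedgehog members they called 8 lower without cave replicate 1, and 6 lower and 1 higher without cave replicate 2. Without either surface library edgeR called no gene in the whole table, so those fits say nothing of hedgehog or other members. The median stayed negative in each case, between -1.40 and -0.84.

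**Figure D2:**
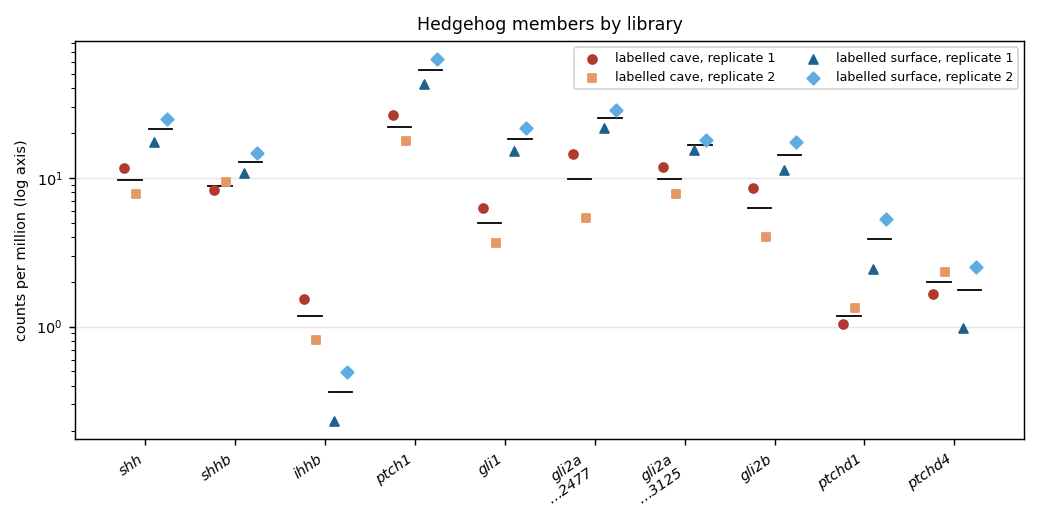
Level of tested hedgehog members in each of the 4 RNA libraries, in CPM on a log axis; points are libraries, short lines the mean of each labelled pair, and digits under gli2a the end of the gene ID. For gli1 the cave-labelled libraries stand at 6.25 and 3.64 CPM under surface-labelled libraries at 15.0 and 21.5 CPM.

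Other genes of the hedgehog pathway were read from a list of 32 symbols, 27 of which were found and tested. EdgeR called 0, with 9 at an unadjusted p under 0.05 beside 18.3% of all genes. DESeq2 called 1 higher and 3 lower, where 6.61% and 3.14% of all genes were called. The median log2 fold change was -0.61. The target gene nkx2.2a, of ventral neural tube, had 8.26 and 0.747 CPM against 23.3 and 42.3 CPM (log2 -2.78; edgeR, adjusted p = 0.248; DESeq2, adjusted p = 0.0196). The gene scube1, of a family that aids release of the ligands, had 0.573 and 0.221 CPM against 1.75 and 3.32 CPM (log2 -2.58; edgeR, adjusted p = 0.139; DESeq2, adjusted p = 0.00422). The optic stalk gene vax1 had 4.69 and 3.61 CPM against 8.94 and 13.3 CPM (log2 -1.33; edgeR, adjusted p = 0.135; DESeq2, adjusted p = 0.00546). The negative regulator hhip, a target in many tissues, stood at log2 -1.38 and the co-receptor gene cdon at -0.58, and the transducer gene smo at -0.76. In the other direction the ligand gene dhh had 2.25 and 0.781 CPM against 0.327 and 0.233 CPM (log2 2.49; edgeR, adjusted p = 0.173; DESeq2, adjusted p = 0.0313), and the inhibitor gene sufu stood at 0.35. Vax1, nkx2.2a, scube1 and dhh were named after their values were seen in DESeq2, except that the sizes of nkx2.2a and scube1 also placed them under the naming rule.

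Markers of forebrain and hypothalamus were also read. All 18 found had a negative fold change (median -1.75), and they summed to 213 and 72.4 CPM in the libraries labelled cave and 414 and 699 CPM in those labelled surface. EdgeR called 1 of the 18 lower and DESeq2 called 6 lower, beside 0.407% and 3.14% of all genes. Cave replicate 2 was the lowest library for all 18 markers. Over the fits on 3 libraries their median ran from -3.90, with cave replicate 1 left out, to -1.10, with cave replicate 2 left out. No marker of the list was at 0 in all libraries. Their part in the hedgehog values was not tested.

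The gene wnt8b (ENSAMXG00000012358, scaffold KB882125.1, 1932579 to 1938224), a forebrain and midbrain Wnt in fish, had 4.17 and 2.11 CPM in the libraries labelled cave and 15.5 and 18.4 CPM in those labelled surface. Its groups were far apart, at 3.14 ± 1.46 against 16.9 ± 2.06 CPM (SD, n = 2). The log2 fold change of -2.35 (SE 0.42) was just short in edgeR (adjusted p = 0.0529; DESeq2, adjusted p = 2.39e-06), and edgeR called it with another scaling or without a filter. It was the 1 Wnt member called lower in either of those fits.

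The gene wnt16 (ENSAMXG00000010212, scaffold KB882156.1, 1775962 to 1791651) had 2.67 and 1.48 CPM against 7.08 and 10.8 CPM, again without overlap (log2 -2.02, SE 0.46; edgeR, adjusted p = 0.0960; DESeq2, adjusted p = 0.000267). It overlaps cped1 on the same strand, so reads may be shared. The midbrain and hindbrain boundary gene wnt1 (ENSAMXG00000012976, scaffold KB882102.1, 143134 to 147761) had 32 and 26 counts in the cave-labelled and 220 and 302 in the surface-labelled libraries. Its log2 fold change of -2.81 (SE 0.58) was the lowest of all members (edgeR, adjusted p = 0.0758; DESeq2, adjusted p = 0.000116), and it was singled out after its values were seen. The separate entries wnt1a and wnt1b overlapped between groups (log2 0.77 and -0.58). The largest positive value, log2 2.08 for wnt4b, rested on 38 and 33 counts against 4 and 18 (edgeR, adjusted p = 0.345). The gene wnt4b overlaps cdc42l on the opposite strand. For wnt7bb the levels were 8.35 and 2.14 CPM against 14.5 and 17.1 CPM (log2 -1.52; edgeR, adjusted p = 0.291; DESeq2, adjusted p = 0.109). The fold changes of wnt8b, wnt16 and wnt1 lay between -3.01 and -1.77 whichever library was left out.

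The clearest Wnt ligand in the other direction was wnt6a (ENSAMXG00000002222), a gene of surface ectoderm in other vertebrates, with 3.18 and 1.82 CPM against 0.885 and 0.790 CPM (log2 1.64, SE 0.54; edgeR, adjusted p = 0.198; DESeq2, adjusted p = 0.0435). The gene wnt2 had 2.61 and 4.48 CPM against 2.44 and 1.91 CPM, with the groups nearly touching (log2 0.78; edgeR, adjusted p = 0.484). The non-canonical ligand genes wnt5a and wnt11r overlapped between groups. Their relative wnt11 did not overlap, at 0.467 and 0.238 CPM against 0.905 and 0.511 CPM (log2 -0.95, edgeR, adjusted p = 0.564). For wnt5a the values were 72.2 and 20.2 CPM against 51.6 and 52.7 CPM, and for wnt11r 31.1 and 5.10 CPM against 16.9 and 18.3 CPM. The fold change of wnt5a was -0.11, and 0.43 without cave replicate 2. That of wnt11r was 0.10, and -1.68 without cave replicate 1. The gene wnt9b, at 0.05, was -0.01 in DESeq2 and -1.47 without cave replicate 1.

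All 12 Frizzled receptor genes had a negative fold change, between -1.78 for fzd4 and -0.08 for fzd5. The fzd4 value rested on 18 and 9 counts against 34 and 86, and this gene overlaps col17a1b on the opposite strand. Of the 12 genes 6 were lower in both cave-labelled libraries without overlap. Of all 22850 genes tested, 11160 had a negative fold change and 27.7% were lower without overlap. EdgeR and DESeq2 each called 0 Frizzled genes. In edgeR 3 (fzd7b, FZD7 and fzd8b, named after their values were seen) had an unadjusted p under 0.05, beside 18.3% of all genes. The gene fzd7b had 44.1 and 29.9 CPM against 64.7 and 63.5 CPM (log2 -0.72, SE 0.25; edgeR, adjusted p = 0.213), and its relative FZD7 had 37.2 and 25.6 CPM against 47.7 and 60.5 CPM (log2 -0.70; edgeR, adjusted p = 0.223). For fzd1 the values were 12.7 and 2.71 CPM against 18.8 and 25.1 CPM (log2 -1.44; edgeR, adjusted p = 0.349). In contrast fzd5, a Frizzled of the eye field and retina, had 17.9 and 44.1 CPM against 36.8 and 32.6 CPM. Cave replicate 2 was there the highest library, and fzd3a also had more in cave replicate 2 (63.7 CPM) than in replicate 1 (35.2 CPM). The sign of the fold change turned without cave replicate 1 for fzd5 (0.45) and fzd3a (0.18). Without cave replicate 2 it turned for fzd2, from -0.10 to 0.29.

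Over all 34 Wnt members tested, edgeR called 0, with 7 (20.6%) at an unadjusted p under 0.05 beside 18.3% of all genes. DESeq2 called wnt6a higher and wnt1, wnt8b and wnt16 lower, where 6.61% and 3.14% of all genes were called. Without cave replicate 1 edgeR called 1 higher and 19 lower (median -1.45), beside 12.9% and 18.1% of all genes. Without cave replicate 2 it called 3 and 8 (median -0.35), beside 11.2% and 8.37%, and without either surface library 0. Of 54 other Wnt pathway symbols 46 were found, as 48 genes with a median of -0.33. EdgeR called 0 of them, with 10 at an unadjusted p under 0.05 beside 18.3% of all genes. DESeq2 called 2 of them higher and 3 lower, beside 6.61% and 3.14% of all genes. The feedback inhibitor gene AXIN2 (ENSAMXG00000015178), a widely used readout of canonical Wnt signalling, had 31.2 and 11.4 CPM against 67.0 and 107 CPM (log2 -1.95, SE 0.49; edgeR, adjusted p = 0.122; DESeq2, adjusted p = 0.00337). The Wnt target gene sp5a had 3.48 and 1.08 CPM against 7.6 and 10.7 CPM (log2 -1.92; edgeR, adjusted p = 0.189; DESeq2, adjusted p = 0.0179). The nuclear partner gene lef1 had 46.2 and 17.9 CPM against 61.3 and 100 CPM (log2 -1.25), and the beta-catenin gene ctnnb1 281 and 223 CPM against 428 and 558 CPM (log2 -0.88; edgeR, adjusted p = 0.109; DESeq2, adjusted p = 0.0257). Higher in both cave-labelled libraries were porcn, whose product lipidates Wnt ligands, at 28.3 and 38.4 CPM against 12 and 16 CPM (log2 1.34; edgeR, adjusted p = 0.0774; DESeq2, adjusted p = 0.00642), and the kinase gene gsk3aa (log2 1.08). The genes of this list other than AXIN2 and sp5a were named after their values were seen.

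All 4 FGF receptor genes had a negative fold change, with a median of -0.88 that went to -0.52 without cave replicate 2, the lowest library in each. The gene fgfr2 (ENSAMXG00000003805) had 168 and 38.0 CPM against 210 and 261 CPM (log2 -1.12, SE 0.64; edgeR, adjusted p = 0.425). For fgfr1a the values were 58.5 and 28.0 CPM against 79.9 and 92.6 CPM (log2 -0.92, SE 0.35; edgeR, adjusted p = 0.257), and for fgfr4 84.1 and 49.7 CPM against 105.3 and 134 CPM (log2 -0.76, SE 0.28; edgeR, adjusted p = 0.247). The groups did not overlap in these 3 genes and overlapped in fgfr3. Among all 22850 genes tested, 27.7% were lower without overlap and 11160 had a negative fold change. Of the kinase-lacking receptor-like genes, fgfrl1a stood at log2 -0.60 and fgfrl1b at 0.39, and the latter went to -1.20 without cave replicate 1.

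Among FGF ligands fgf8 (ENSAMXG00000012018, scaffold KB882125.1, 649873 to 656095), a signal of the optic stalk and midbrain boundary that starts retinal differentiation in fish, had 9.84 and 8.55 CPM in the cave-labelled and 14.2 and 14.8 CPM in the surface-labelled libraries. The pairs were tight and apart, at 9.20 ± 0.910 and 14.5 ± 0.436 CPM (SD, n = 2), yet the fold change of -0.58 (SE 0.28) missed the threshold (edgeR, adjusted p = 0.345; DESeq2, adjusted p = 0.265). The related retinal inducer gene fgf3 had 4.93 and 3.77 CPM against 6.57 and 8.98 CPM (log2 -0.75; edgeR, adjusted p = 0.352). The paralog fgf8b had 0.814 and 0.221 CPM against 1.27 and 1.83 CPM (log2 -1.50; edgeR, adjusted p = 0.375). Higher in both cave-labelled libraries were FGF1, at 9.70 and 8.66 CPM against 6.02 and 5.67 CPM (log2 0.73, SE 0.32; edgeR, adjusted p = 0.316), and fgf24 by a small margin (log2 0.48). The intracellular FGF-like genes, whose products bind sodium channels in neurons and are not secreted, included fgf14 at 17 and 9.35 CPM against 19.0 and 37.6 CPM (log2 -1.01) and fgf13b at log2 -1.03.

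The centrosome and cytoskeleton genes that share the FGF receptor name went differently. The gene fgfr1op2 had 45.9 and 51.5 CPM against 30.7 and 29.4 CPM (log2 0.77, SE 0.21; edgeR, adjusted p = 0.144; DESeq2, adjusted p = 0.138), while fgfr1op lay within 94.6 to 101 CPM in every library. Over the 32 FGF members tested edgeR and DESeq2 each called 0. In edgeR 3 (9.4%) had an unadjusted p under 0.05, beside 18.3% of all genes. Leaving out cave replicate 1 gave 1 higher and 16 lower in edgeR (median -1.17), beside 12.9% and 18.1% of all genes. Leaving out cave replicate 2 gave 1 higher and 0 lower (median -0.23), beside 11.2% and 8.37%, and leaving out either surface library 0. Of 31 other FGF pathway symbols 27 were tested, with a median of -0.46. EdgeR called 1 higher and 0 lower, beside 2.77% and 0.407% of all genes. DESeq2 called 1 higher and 2 lower, beside 6.61% and 3.14%. The gene that rose was ptpn11b, which encodes a Shp2-type phosphatase downstream of receptor kinases, at 41.0 and 58.1 CPM against 9.41 and 6.99 CPM (log2 2.67, SE 0.34; edgeR, adjusted p = 0.0229; DESeq2, adjusted p = 2.13e-08). The fits without either surface library called no gene at all, so they cannot decide on this call. FGF feedback and target genes gave mixed values: etv4 stood at 6.95 and 2.05 CPM against 11.7 and 14.3 CPM (log2 -1.46), while dusp6, a phosphatase induced by FGF, was level at 43.6 and 49.7 CPM against 44.8 and 51.5 CPM (log2 0.04). Dusp6 and spry4 (log2 -0.31) were added to the named genes after their values were seen.

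BMP members were the most mixed. Of the 26 tested 15 had a negative and 11 a positive fold change. The dorsal retina ligand gene bmp4 (ENSAMXG00000014821, scaffold KB882233.1, 5551712 to 5560813) had 27.3 and 16.1 CPM in the cave-labelled and 33.8 and 34.1 CPM in the surface-labelled libraries (log2 -0.57, SE 0.30; edgeR, adjusted p = 0.388). The growth factor gene gdf11 (ENSAMXG00000004830), which in mice limits the number of retinal ganglion cells, had 1.39 and 0.467 CPM against 2.9 and 6.21 CPM. It stood lowest among BMP members (log2 -2.20, SE 0.70; edgeR, adjusted p = 0.188) and was the 1 member that DESeq2 called (adjusted p = 0.0169). The gdf6 pair, of which gdf6a sets dorsal retina in zebrafish, differed in size: gdf6b had 1.36 and 1.32 CPM against 2.67 and 4.15 CPM (log2 -1.25; edgeR, adjusted p = 0.244), and gdf6a 7.04 and 6.82 CPM against 8.86 and 8.05 CPM (log2 -0.21). In the other direction gdf3, a Nodal partner of the early embryo, had 1.25 and 1.70 CPM against 0.626 and 0.660 CPM (log2 1.28, SE 0.55; edgeR, adjusted p = 0.300), and bmp6 was higher by a small margin (log2 0.41). For gdf1b the values were 4.57 and 0.323 CPM against 0.728 and 1.64 CPM, and its fold change of 1.13 turned to -1.74 without cave replicate 1. Near level were bmp5 (log2 -0.33, and 0.086 without cave replicate 2), gdf1a (log2 0.17, and -0.10 without cave replicate 1) and the kinase gene BMP2K (log2 -0.27).

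The 5 BMP receptor genes had a median of -0.01, with single values from -0.75 to 0.63. The type 1 receptor gene bmpr1aa had 52.8 and 31.0 CPM against 43.9 and 44.8 CPM (log2 -0.01), and it overlaps mmrn2a on the opposite strand. The type 2 receptor genes parted, with bmpr2b at 8.57 and 19.9 CPM against 23.6 and 27.6 CPM (log2 -0.75) and bmpr2a at 13.4 and 19.8 CPM against 8.66 and 14.4 CPM (log2 0.63). The protease gene bmp1a, a tolloid-type enzyme that cleaves BMP antagonists and collagens, had 45.0 and 48.2 CPM against 84.9 and 78.6 CPM, with narrow pairs (log2 -0.73, SE 0.20; edgeR, adjusted p = 0.144; DESeq2, adjusted p = 0.116). Over the 26 members edgeR called 0, with 3 (11.5%) at an unadjusted p under 0.05 beside 18.3% of all genes. DESeq2 called 1 lower, where 3.14% of all genes were called lower. The fit without cave replicate 1 called 2 higher and 8 lower, beside 12.9% and 18.1% of all genes. The fit without cave replicate 2 called 1 higher and 4 lower, beside 11.2% and 8.37%, with the median at 0.16. The fits without either surface library called no gene, member or not. Of 52 other BMP pathway symbols 39 were found, as 40 genes of which 39 were tested, with a median of -0.25. EdgeR called 0 of them, with 7 at an unadjusted p under 0.05 beside 18.3% of all genes. DESeq2 called 2 of them lower, beside 3.14% of all genes. The antagonist gene nog2 had 0.595 and 0.289 CPM against 1.95 and 3.49 CPM (log2 -2.53; edgeR, adjusted p = 0.117; DESeq2, adjusted p = 0.00142), and sostdc1b stood at log2 2.06, or -2.33 without cave replicate 1. The copies of the BMP target gene id1, named after their values were seen, stood at -0.11 and -0.25.

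**Figure D3:**
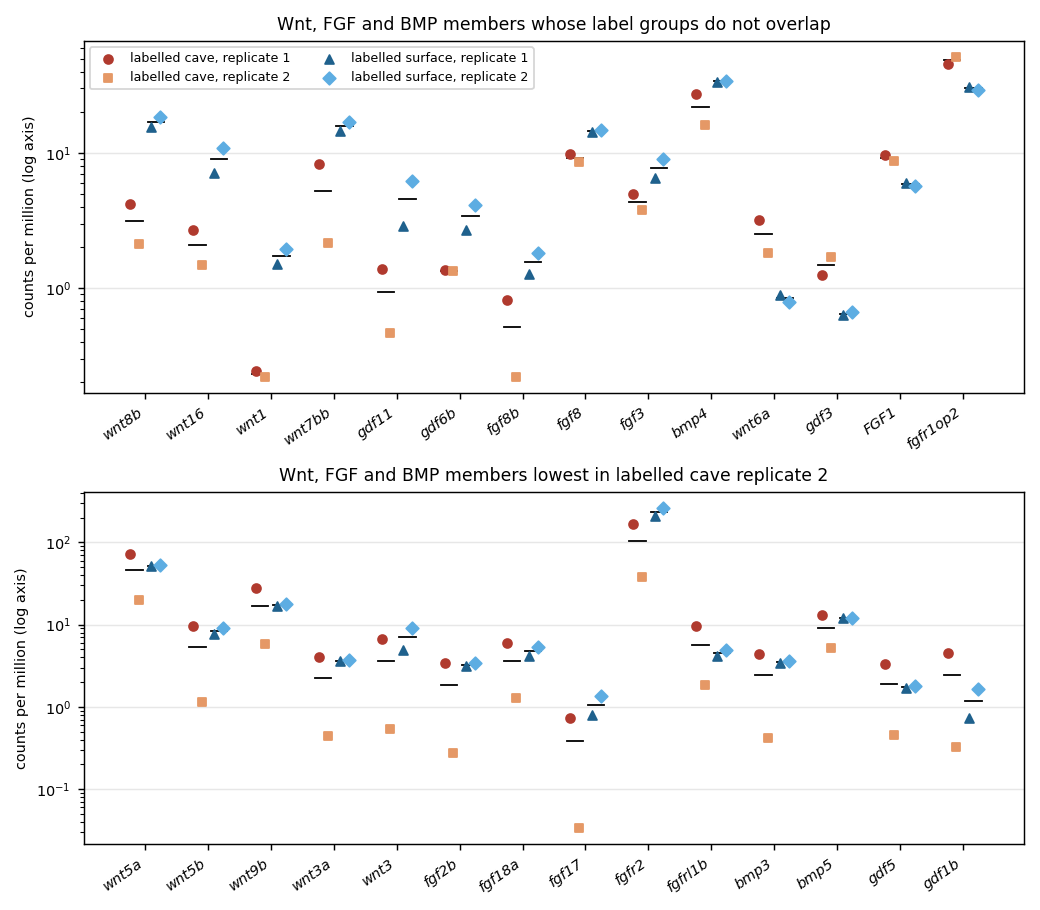
Levels of Wnt, FGF and BMP members in each RNA library, in CPM on log axes; points are libraries and short lines the mean of each labelled pair. The upper panel shows 14 members whose groups do not overlap, such as wnt8b, and the lower panel 14 members lowest in cave replicate 2, such as wnt3a at 0.442 CPM beside 3.61 to 4.02 CPM in the other libraries.

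The cave-labelled libraries differed more from each other than the surface-labelled ones. Cave replicate 2 was the lowest of the 4 libraries in 70 of the 103 members (68.0%), against 36.4% of all genes tested. The median log2 ratio of cave replicate 2 to cave replicate 1 (CPM plus 0.1) was -0.75 over the members and -0.06 over all genes, and 17 members (16.5%) lay more than 4-fold lower in cave replicate 2, against 9.03% of all genes. No member lay as far down in surface replicate 2 under surface replicate 1. By pathway, 9 of these 17 were Wnt, 5 FGF, 3 BMP and 0 hedgehog members.

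In some of these, such as the next 4 genes, cave replicate 1 lay near the surface libraries. The ligand gene wnt3a, of dorsal neural tube and tail bud, had 4.02 and 0.442 CPM against 3.61 and 3.70 CPM. The gene bmp3, an antagonist-like ligand of skeleton, had 4.40 and 0.425 CPM against 3.43 and 3.63 CPM. For fgf2b the values were 3.41 and 0.272 CPM against 3.12 and 3.40 CPM, and for wnt5b, a ligand of cartilage and tail, 9.52 and 1.16 CPM against 7.71 and 9.06 CPM. In others it lay above them, as in the joint gene gdf5, with 3.33 and 0.459 CPM against 1.72 and 1.79 CPM. Without cave replicate 2 the fold change turned from -0.65 to 0.10 for wnt3a, from -0.49 to 0.29 for bmp3, from -0.77 to 0.032 for fgf2b and from -0.59 to 0.15 for wnt5b. That of gdf5 turned from 0.17 to -1.82 without cave replicate 1. These genes were picked for their spread between libraries and are a description. The skin and mesenchyme markers given above were about as far down in the same library, and their part in these values was not tested.

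**Figure D4:**
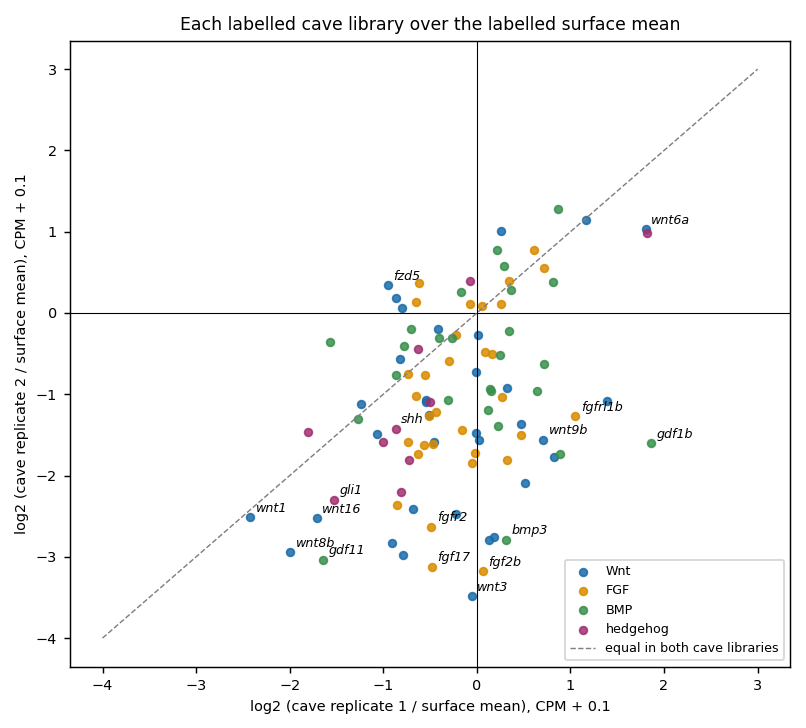
Log2 ratio of cave replicate 1 (x axis) and of cave replicate 2 (y axis) to the mean of the surface-labelled libraries, for tested members (CPM plus 0.1; colours are pathways, dashed line equal ratios). Most points lie under the dashed line, and gli1, wnt8b, wnt16 and wnt1 lie below 0 on both axes; both axes share the surface mean.

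The second comparison asks whether DNA methylation at these genes differs between the cave and the surface eye library. Each morph has 1 WGBS library, so the test sets library against library and says nothing of variation within a morph. Neighbouring calls can come from the same read, so the Fisher p-values are too small, and intervals (Clopper-Pearson, exact, 95%) cover counting error only and are too tight. All call numbers of the cave library were even, against 52.0% of those of the surface library. Whether each cave call was entered more than once was not tested. If so, the cave numbers printed are too high: halved, the 138 cave calls at fgfr1op2 become 69 and the interval of its level 55.8% to 78.8%. Upstream regions of 109 members had at least 20 calls in each library, with 95 to 110016 calls per region. The region of gli1 had 0 calls in both. Over the 11 hedgehog regions the median upstream methylation was 13% in the cave and 12.4% in the surface library. Single hedgehog regions ranged widely, from 3.31% to 87.7% in the cave and from 6.51% to 77.0% in the surface library. The medians were 23.5% and 28.4% over Wnt, 46.9% and 24.7% over FGF and 38.5% and 45.8% over BMP members, and 72.7% and 70.5% over all 23680 regions. These medians fall on different regions in each library. Taken region by region, the median of cave minus surface was -0.45 points over Wnt, 0.10 over FGF, 1.32 over BMP, 2.03 over hedgehog and 0.73 over all regions. Of the members' regions 28 (25.7%) were under 10% in both libraries and 17 (15.6%) over 80% in both, against 16.5% and 34.2% of all regions.

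Regions were called where the adjusted p was under 0.05 and the difference at least 10 percentage points. Of the members 9 were more methylated in the cave library (8.26%) and 6 less (5.50%), where 12.1% and 8.67% of all regions were called. The largest of these differences was at fgfr1op2, at 68.1% (interval 59.6% to 75.8%) of 138 calls against 15.8% (9.12% to 24.7%) of 95 calls. The region of gdf6b followed at 69.9% of 816 calls against 46.6% of 491 calls, then wnt1a at 78.9% of 370 calls against 57.8% of 294 calls. The gli2a copy ENSAMXG00000002477 stood at 87.7% of 716 calls against 77.0% of 470 calls. Also called higher were fgfrl1b (88.3% against 75.1%), wnt9a (60.3% against 47.8%), fgfr2 (21.7% against 10.7%) and wnt3 (82.5% against 72.5%).

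Lower in the cave library were fzd7b, at 36.3% (30.3% to 42.6%) of 248 calls against 74.5% (66.4% to 81.4%) of 141 calls, and fgf11b, at 46.9% of 3432 calls against 85% of 3372 calls. The region of bmpr2b stood at 23.0% of 1218 calls against 58.0% of 981 calls, that of gdf9, an oocyte growth factor gene, at 10.4% against 31.9%, that of wnt5b at 58.0% against 72.6% and that of fzd1 at 66.1% of 218 calls against 78.1% of 146 calls. The call of fzd1 was lost with cave calls halved (adjusted p = 0.0840 in Fisher's exact test). Several genes with large RNA differences were not called. Of these wnt8b stood at 1.69% against 3.08%, wnt16 at 3.09% against 3.62% and wnt1 at 93.6% against 86.3%. Likewise ptch1 stood at 17.5% against 13%, shh at 11.7% against 12.4% and gdf11 at 77.9% against 81.6%. The gli2a copy ENSAMXG00000002477, called higher upstream, had a log2 fold change of -1.28, beyond those of ptch1 and shh. The region of gli1 could not be tested. The region of shhb, at 3.31% against 11.6%, was short of 10 points.

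Gene bodies of all 110 members were covered by 840 to 143116 calls. Their median level was 71.0% in the cave and 71.1% in the surface library, under the 83.4% and 82.1% of all 25016 bodies. Of the members 31 (28.2%) were over 80% in both libraries, against 53.6% of all bodies. The lowest bodies were those of gdf6a (1.76% and 2.03%), the wnt8a copies (2.01% to 3.33%) and fgf6b (8.54% and 8.03%). Bodies of 4 members were more methylated in the cave library (3.64%) and 1 less (0.909%), against 3.15% and 1.99% of all bodies. The Frizzled gene FZD7 (ENSAMXG00000024305, scaffold KB882312.1, 1055752 to 1057929) stood at 33.7% (33.1% to 34.4%) of 19748 calls against 7.08% (6.74% to 7.43%) of 21554 calls. Its relative fzd3a (scaffold KB882090.1, 1428061 to 1449584) stood at 74.7% of 19668 calls against 56.0% of 20593 calls. The body of gdf6b, like its upstream region, was higher in the cave library, at 79.4% of 14162 calls against 64.3% of 7732 calls, and that of fgf1a stood at 33.4% against 22.7%. The body of fgf8b was lower, at 39.9% against 50.6%. No hedgehog gene body was called, with shh at 45.2% against 54.6% and shhb at 73.8% against 82.0%.

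**Figure D5:**
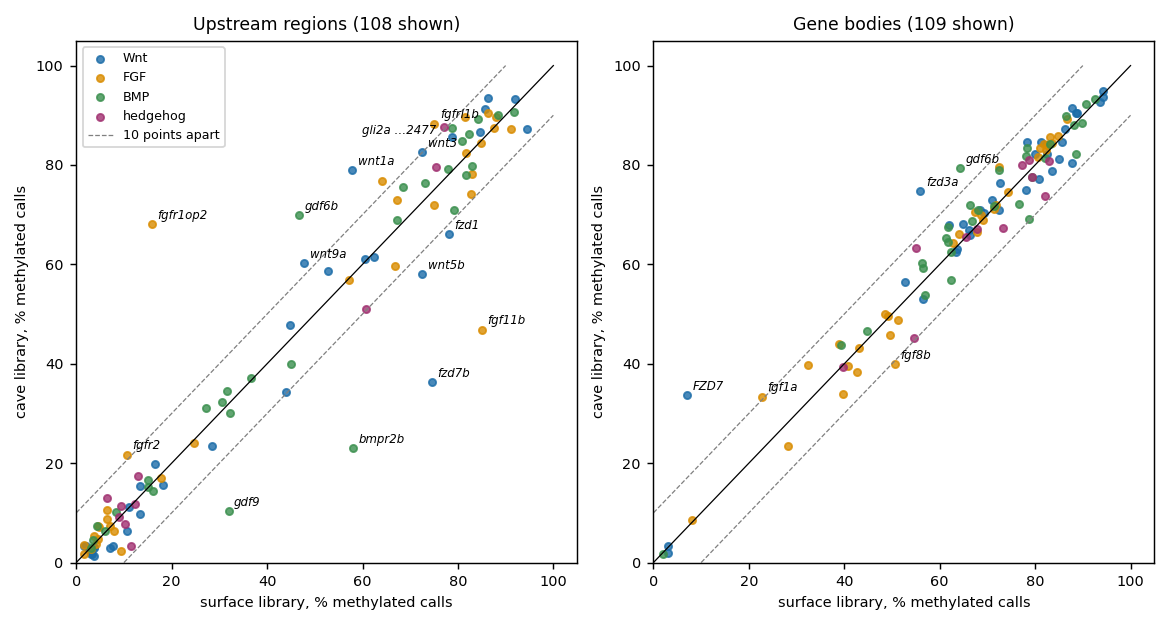
Methylation of members in the cave library (y axis) against the surface library (x axis), in percent of calls, for upstream regions (left) and gene bodies (right); colours are pathways, and dashed lines mark 10 points of difference. Named points are upstream regions and bodies called, among them fgfr1op2 at 68.1% against 15.8% upstream and FZD7 at 33.7% against 7.08% in the body.

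Side by side, gdf6b and fgfr2 had more upstream methylation in the cave library and less RNA in the libraries labelled cave, neither with an expression call, while fgfr1op2 had more upstream methylation and a positive fold change (log2 0.77), also with no expression call. For fzd7b and bmpr2b the upstream methylation was lower and the fold change negative (log2 -0.72 and -0.75), neither with an expression call in edgeR or DESeq2. The gli2a copy ENSAMXG00000002477 (log2 -1.28), wnt3 (log2 -0.87) and wnt9a (log2 -0.19) also had more upstream methylation and negative fold changes. Without cave replicate 2 the fold change was -0.07 for wnt3 and 0.50 for wnt9a. By contrast fgfrl1b and wnt1a had more upstream methylation and positive fold changes (log2 0.39 and 0.77). Without cave replicate 1 the fold change of each was -1.20. Less methylation and negative fold changes were seen in fzd1 (log2 -1.44), wnt5b (log2 -0.59, and 0.15 without cave replicate 2) and gdf9 (log2 -0.48). For fgf11b the methylation was lower and the fold change near 0 (log2 0.07). None of these had an expression call in edgeR or DESeq2. No relation between the measures was tested, and the labels of the RNA columns bear on each pairing.

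The authors' deposited table lists 109 of the members. At an adjusted p under 0.05 the authors' deposited table holds 9 with a fold change above 0 and 1 with one below 0. It calls 2320 genes in all, and their share by direction was not computed. DESeq2 here, with the opposite sign for all of those genes, called 3.14% of all genes lower and 6.61% higher. The authors' deposited table gives 2.41 for wnt1, 2.19 for wnt8b, 1.87 for wnt16, 1.70 for gli1, 1.14 for ptch1 and 1.01 for shh as log2 values, and -1.40 for wnt6a. These come from the same 4 libraries and add no independent evidence.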

How the data were processed

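RNA was sequenced in 2 libraries and WGBS in 1 library per morph. Per the submitters' processing notes, reads passed through Bismark or STAR, with Trimmomatic, featureCounts (Subread) and DESeq2 also listed and no version given. Not given in the sources used here: build, strand setting, cytosine context, upstream width and duplicate removal. The authors deposited raw counts per gene, and counts of methylated and unmethylated calls per region, from which percentages were computed here. Among RNA counts of 1 to 30, 74.4% to 86.6% were even, and all calls of the cave WGBS library were even, against 52.0% in the surface library. Whether RNA fragments were counted more than once was not tested. If so, fewer fragments lie behind the counts than printed. Their own comparison, per the file headers, holds a mean signal, a log2 fold change with its error, a score and p-values.

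Counts were tested with edgeR 4.0.16 (R 4.3.3; TMM, filterByExpr, quasi-likelihood, Benjamini-Hochberg over 22850 genes, 2 against 2 libraries), with DESeq2 1.42.0 as an alternative. Standard errors were taken as |log2 fold change| divided by the root of the F statistic. Regions with at least 20 calls per library were compared with Fisher's exact test, two-sided. Both steps were checked on simulated data. Python 3.11.15, scipy 1.17.1, numpy 2.4.6, pandas 2.3.3 and matplotlib 3.10.9 were used.

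Members and lists were chosen with earlier results of these data known. Genes named were, per pathway, the 4 highest and 4 lowest fold changes with a mean log2 CPM no lower than 0, up to 3 of the highest mean CPM per role, all hedgehog ligand genes, ptch1 and the Gli genes, the 3 largest methylation calls per region type, and for other pathway genes those past the threshold and the 2 largest fold changes. Every other gene named was chosen after its values were seen. Counts and medians cover all members, but 1 member's own values are not reported here or drawn. Lists were also read for photoreceptor, pigment, lens, inner retina, progenitor, forebrain, skin, mesenchyme, blood and muscle markers.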

Additional observations from a re-analysis of the deposited data

How the results depend on the processing

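Of 66 members followed by name, 18 changed sign under some setting and 4 did so in a fit on all 4 libraries. Over all 103 tested members these counts were 38 and 5. DESeq2 called 1593 genes higher and 756 lower, where edgeR called 633 and 93. It called 1 Wnt member higher and 3 lower, 1 BMP member lower and 5 hedgehog members lower, where edgeR called 0. RLE size factors and no filter on low counts each gave 1 Wnt call lower. Leaving out 1 library moved calls over all genes from 0 to 2989 higher and from 0 to 4203 lower. The same fits gave 0 to 3 higher and 0 to 19 lower Wnt members, 0 to 1 and 0 to 16 FGF, 0 to 2 and 0 to 8 BMP, and 0 to 1 and 0 to 8 hedgehog. Medians ranged from -1.45 to -0.35 for Wnt, -1.17 to -0.23 for FGF, -0.51 to 0.16 for BMP and -1.40 to -0.84 for hedgehog members. The cause of these shifts was not tested. Wnt9b was -0.0071 with DESeq2 and -0.0054 with RLE size factors. Over the fits on 3 libraries the log2 fold change that changed sign ran from -1.47 to 0.68 for wnt9b, -1.68 to 0.79 for wnt11r, -1.20 to 1.49 for wnt1a, -1.26 to 0.43 for wnt5a, -2.74 to 0.15 for wnt5b and -0.83 to 0.18 for fzd3a. It ran from -1.40 to 6.97 for fgf11b, -1.20 to 1.04 for fgfrl1b, -1.11 to 0.086 for bmp5, -0.10 to 0.32 for gdf1a, -1.74 to 1.94 for gdf1b, -0.41 to 0.22 for bmpr1aa and -0.26 to 1.03 for ptchd4. It ran from -0.99 to 0.45 for fzd5, -2.94 to 0.10 for wnt3a, -3.47 to 0.032 for fgf2b, -2.94 to 0.29 for bmp3 and -1.82 to 0.89 for gdf5. Among other members, wnt9a ran from -2.04 to 0.50 and fzd2 from -0.82 to 0.29.

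With the replicate number as a block, edgeR called 318 genes higher and 35 lower, and wnt9b was -0.35, wnt11r -0.40, gdf5 -0.41 and fgfrl1b -0.032. The numbers only name libraries: deviations of cave and surface replicate 1 correlated at -0.07 across 22850 genes, and 2 pairs cannot show pairing.

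Methylation counts stayed within 1.5 times under coverage minimums of 10 and 50 and with cave calls halved, an alternative added after seeing the data that lost 1 upstream call among members, fzd1. Low counts limit wnt4b, fzd4, ihhb and fgf11b. In position 9 members overlap another gene: wnt3, wnt4b, wnt5b, wnt16, fzd4, fgfrl1a, bmpr1aa, ihha and a bmpr1ba copy. The strand setting is not given, so their reads may be shared.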
